A study of Mus musculus with 15 samples.

Results

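Cholesterol synthesis and its sterol control were described here through 26 genes chosen by symbol, each of which had a row among the 23420 genes of the expression table and was above 0 in at least 3 of 15 libraries, so that all 26 were among the 11190 genes tested. They comprise 18 enzymes of cholesterol synthesis in 3 arms (7 in the mevalonate arm, 3 from squalene to lanosterol and 8 from lanosterol to cholesterol), 5 genes of sterol control and 3 of sterol transport. Msmo1 is listed in the table under its older symbol, Sc4mol. Synthesis enzymes outside these 26 genes were not analysed here.

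The study profiled antigen-specific germinal centre B cells and their plasmablast progeny in mice, with 3 libraries in each of 5 groups and 100 sorted cells behind each library. CD45.1+ B cells carrying B1-8hi, an antigen receptor heavy chain knock-in that favours binding of the hapten NP, were moved into C57BL6 recipients, which received NP-CGG in complete Freund's adjuvant (CFA), and draining lymph node cells were taken on day 12. Donors of 4 groups were B1-8hi (KI/+) Bcl6-YFP (KI/+), and these cells were gated as B220+ CD38lo GL7hi: dark zone cells (DZ) were CXCR4hi CD86lo, and light zone cells (CXCR4lo CD86hi) were divided into Fraction 3 (CD69lo Bcl6hi), Fraction 2 (CD69hi Bcl6hi) and Fraction 1 (CD69hi Bcl6lo). Germinal centre plasmablasts (GC-PB) came from B1-8hi (KI/+) donors with S1pr2-ERT2cre and ROSA-Ai14, whose recipients were given tamoxifen on days 6, 7 and 8, so that tomato-positive cells descend from cells in which S1pr2 drove the inducible Cre at that time. GC-PB therefore differ from the other groups in donor genotype and in tamoxifen as well as in cell state, and these cannot be told apart. The replicates are separate library preparations and the labels name no animals, so p-values measure the spread between preparations, which may be technical.

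Cholesterol is built from acetyl-CoA through mevalonate and isoprenoid units to squalene, which is closed to lanosterol and then trimmed to cholesterol. The isoprenoids also feed protein prenylation, dolichol and ubiquinone. Transcription of most of these enzymes is driven by SREBP-2 (Srebf2) when sterols are low: SCAP escorts the precursor from the endoplasmic reticulum to the Golgi for cleavage, and INSIG proteins hold SCAP back when sterols are high. LXR target genes such as Abca1 and Abcg1 export cholesterol when it is in excess. In lymphocytes, sterol synthesis is known to rise with activation and growth, and oxysterols made from cholesterol help to position B cells in lymphoid tissue.

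The promoters of 4 members are shown because these genes stand for the patterns described further on: Hmgcs1 and Cyp51 for enzymes, Insig1 for control, and Ebp for an enzyme that moved the other way in plasmablasts. Capitals mark matches on either strand: the CCAAT box, which reads ATTGG where it lies on the opposite strand, then the GC box GGGCGG, which reads CCGCCC on the opposite strand. In Hmgcs1 they also mark TCACNCCAC, a spelling of the sterol regulatory element. Sequences are from the RefSeq promoter table on GRCm38.p6, read 5′ to 3′ in the direction of the gene, and take up to 250 bases before the RefSeq start. For Cyp51 and Insig1 the last 49 bases are left off because they lie inside the gene as GENCODE draws it. The CCAAT match of Cyp51, 29 to 25 bases before the RefSeq start, lies in that part and is not shown.
Hmgcs1 (chr13:119690101-119690350, plus strand, 250 bases): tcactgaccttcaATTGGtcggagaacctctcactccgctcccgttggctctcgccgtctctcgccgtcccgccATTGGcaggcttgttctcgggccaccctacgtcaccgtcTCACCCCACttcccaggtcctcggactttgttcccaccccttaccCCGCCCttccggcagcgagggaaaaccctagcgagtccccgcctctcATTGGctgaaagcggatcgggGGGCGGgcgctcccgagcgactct
Cyp51 (chr5:4104747-4104947, minus strand, 201 bases): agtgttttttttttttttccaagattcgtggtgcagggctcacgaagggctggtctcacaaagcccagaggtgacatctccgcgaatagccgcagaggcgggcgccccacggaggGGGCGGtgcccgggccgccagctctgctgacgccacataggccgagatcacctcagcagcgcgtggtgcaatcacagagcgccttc
Ebp (chrX:8193513-8193762, minus strand, 250 bases): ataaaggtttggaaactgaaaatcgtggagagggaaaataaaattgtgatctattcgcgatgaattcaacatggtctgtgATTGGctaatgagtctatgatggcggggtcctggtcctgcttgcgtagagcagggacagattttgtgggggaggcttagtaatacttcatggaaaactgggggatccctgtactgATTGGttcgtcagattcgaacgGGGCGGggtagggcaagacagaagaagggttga
Insig1 (chr5:28071162-28071362, plus strand, 201 bases): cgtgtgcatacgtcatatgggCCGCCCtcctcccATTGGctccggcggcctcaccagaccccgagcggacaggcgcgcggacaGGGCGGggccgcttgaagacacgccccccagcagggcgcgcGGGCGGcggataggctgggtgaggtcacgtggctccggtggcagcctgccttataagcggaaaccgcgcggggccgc
The TCACNCCAC match in Hmgcs1 lies 137 to 129 bases before the start, between CCAAT matches at 176 to 172 and at 45 to 41. In the window of Idi1, not printed, CCAAT matches lie at 45 to 41 and 14 to 10 bases before the start and a GGGCGG match at 69 to 64. The table matched 21 of the 26 members, with 29 windows of 300 bases (250 before and 50 after a start). Fdft1, Fdps, Abcg1, Stard4 and Sqle were not matched. CCAAT on either strand was found for 18 of the 21 genes, against 41.1% of the 27025 genes in the table. GGGCGG was found for 20 of the 21, against 38.2%. TCACNCCAC was found for 1, Hmgcs1, against 1.44%, and the looser TCACNNCAC, which includes the former, for 4 (Hmgcs1, Msmo1, Hsd17b7 and Dhcr7), against 4.37%. The motifs do not overlap one another in the sequences printed. The spellings were chosen after matches were seen, so these shares are a description and no test. The background also takes in genes outside the tested set, and windows per gene differ (29 for 21 members, 32851 for all 27025 genes). A match of letters is no evidence of a bound site, and no binding was measured here.

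Levels below are the deposited signal scaled so that every library has the same total, and a change is the difference of log2(level + 1), which understates the change of low genes. The value that 1 molecule would have at this scale, reading each library's most frequent value as 1 molecule, ran from 0.107 to 0.233. As deposited, library totals ran from 27942 to 115088 (184103 to 376991 molecules on that reading), with 9185 to 10132 detected genes. The 26 members are low genes: a library held at most 80 molecules of any of them (Idi1). Transcripts of Bcl6, Cxcr4 and Cd86 followed the gates. Bcl6 was 17.9 in DZ, 21.3 in Fraction 3, 15.5 in Fraction 2, 3.97 in Fraction 1 and 0 in GC-PB. Cxcr4 was 11.8 in DZ and 6.5, 3.78 and 1.64 in Fractions 3, 2 and 1. Cd86 was 1.59 in DZ and 5.16, 4.89 and 7.24 in these fractions. The plasmablast markers Igj (1800) and Sdc1 (13.6) were high in GC-PB. Cd69 transcript set the CD69 gates apart by little, at 2.17 ± 0.501 (SD, n = 3) in Fraction 3 (sorted as CD69lo) against 2.91 in Fraction 2 (CD69hi) and 2.65 in Fraction 1. Of the T cell markers Cd3e and Cd4 were at 0 in every library, while the summed list of 8 ran from 1.59 to 5.88 in the germinal centre groups, mostly Lck. The myeloid list summed to at most 0.985 with Itgam at 0, and Col1a1, Col1a2, Col3a1 and Pdgfrb were at 0. The stromal list, through Cr2 and Pecam1, which B cells can carry too, summed to 2.72 to 4.97 in DZ and 7.88 to 9.55 in Fraction 3. The T cell list summed to 1.92 ± 0.326 in DZ and 4.42 ± 0.589 in Fraction 3, of which Lck was 1.83 and 4.36. No other gene of that list had a mean above 0.0587 in these groups. The part of either list in the differences between these groups was not tested. Xist was 8.94 to 14.4 in the 6 libraries of Fraction 1 and GC-PB and 0 in the other 9, while Ddx3y was 3.91 to 6.21 in those 9 and at most 0.0406 in the 6. Fraction 1 vs Fraction 2 crosses this divide in sex-linked transcripts with every library, so that the divide and the Bcl6 gate cannot be told apart there.

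**Figure D1:**
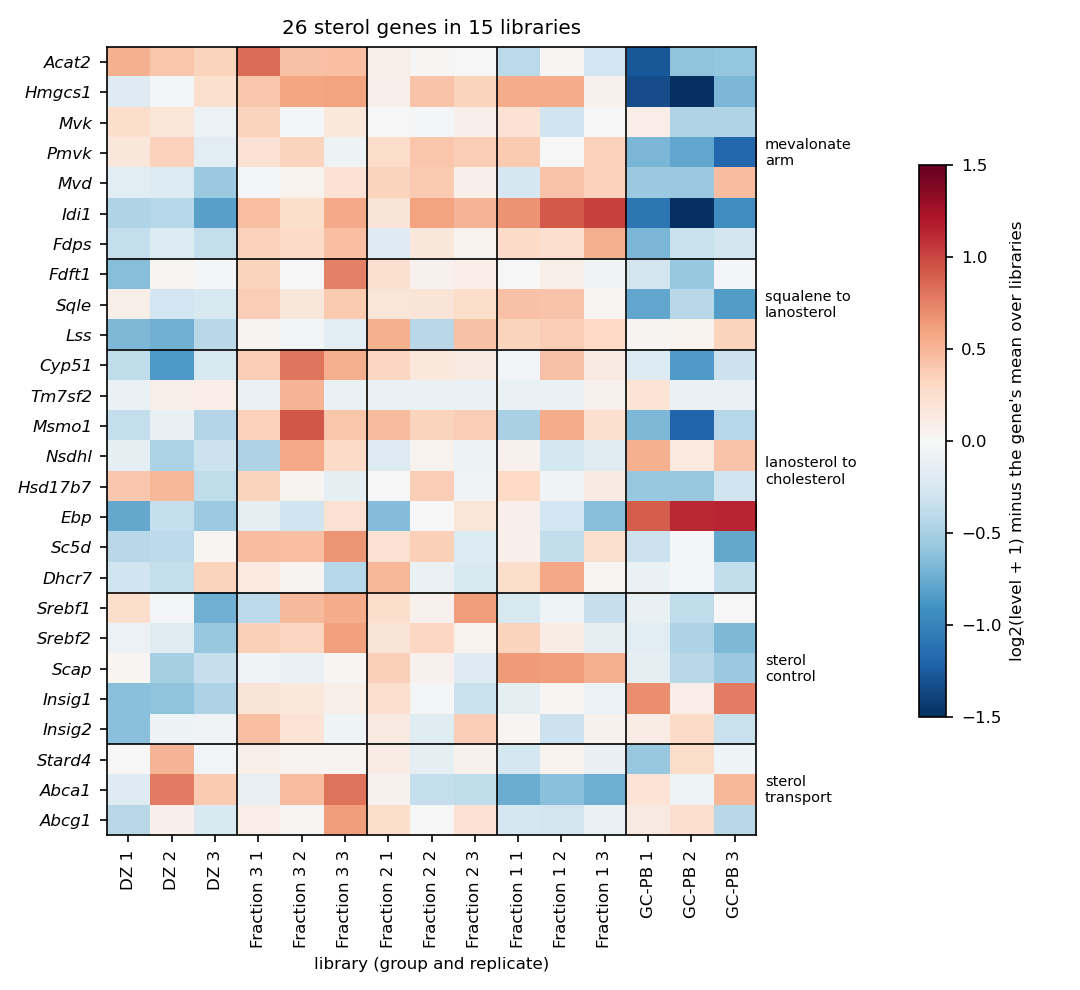
Level of the 26 genes in 15 libraries as log2(level + 1) minus each gene's mean over libraries (colour, red higher and blue lower), with genes as rows grouped by arm and libraries as columns grouped by cell group. Most enzymes are blue in the DZ columns and red in Fraction 3. Most of the mevalonate arm is blue in GC-PB, except Mvk in replicate 1 and Mvd in replicate 3, and Ebp is red there.

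At equal library totals the 18 synthesis enzymes together were lowest in GC-PB and in DZ and higher in all 3 light zone fractions. Their summed level was 23.3 ± 0.511 (SD, n = 3) in DZ, 41.7 ± 1.43 in Fraction 3, 35.5 ± 1.56 in Fraction 2, 38.6 ± 1.78 in Fraction 1 and 19 ± 2.39 in GC-PB. The 3 DZ libraries held 23 to 23.9 and the 9 light zone libraries 34 to 42.8, with no overlap, and the GC-PB libraries held 17.1 to 21.7. The sums weight the higher genes and carry no test. As deposited DZ was still lowest (16.8 to 19.9), but GC-PB (27.8 to 38) overlapped Fractions 3 and 2 (28.9 to 37) and Fraction 1 stood at 100 to 115. The share of ribosomal Rn45s in the deposited signal moved with the groups too, at 6.17% to 8.42% in DZ, 5.4% to 6.31% in Fraction 3, 3.31% to 4.49% in Fraction 2, 3.87% to 4.75% in Fraction 1 and 8.34% to 9.97% in GC-PB, and its part in these differences was not tested. By arm, the mevalonate sum was 13.7 in DZ, 22.2 in Fraction 3, 19.3 in Fraction 2, 22.8 in Fraction 1 and 6.31 in GC-PB. The arm from lanosterol to cholesterol went from 6.71 in DZ to 14.1 in Fraction 3 and stood at 9.81 in GC-PB. At equal totals GC-PB thus lay below DZ for the mevalonate arm (5.32 to 8.26 against 12.6 to 14.8), while as deposited both groups had a mean of 10.8. GC-PB lay above DZ for the last arm (9.06 to 10.2 against 6.35 to 7.38), but without Ebp the arm summed to 4.53 to 6.52 in GC-PB and 5.38 to 6.66 in DZ, which overlap. Fraction 3 had the highest mean of the 5 groups for 13 of the 26 members, GC-PB the lowest for 14 and DZ the lowest for 7. Such ranks were not counted over all tested genes, so they are no trait of the members. Some rest on small gaps, as for Sqle at 2.61 in Fraction 3 and 2.6 in Fraction 1. In these sorted samples fewer cells that express a gene and less RNA per cell cannot be told apart.

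**Figure D2:**
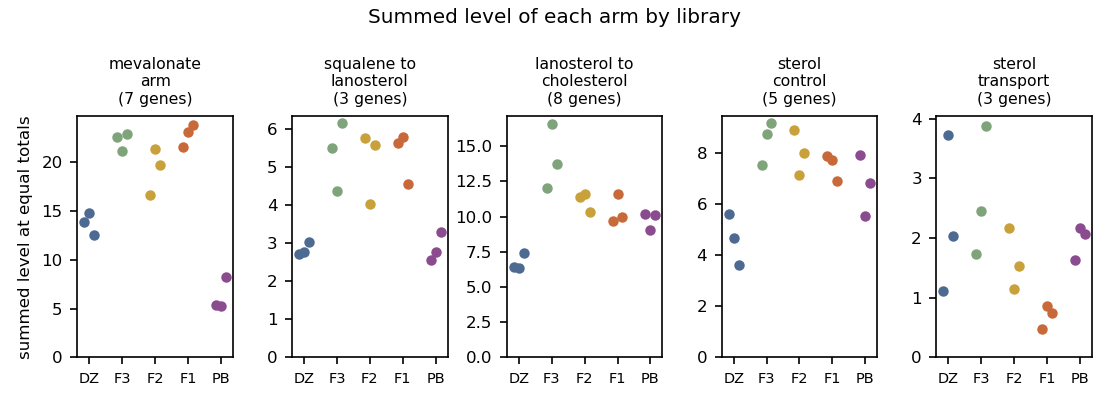
Summed level at equal library totals of the members of each arm (vertical axis, linear from 0) in the 5 groups (horizontal axis: DZ, Fractions 3, 2 and 1 as F3, F2 and F1, and GC-PB as PB), with 1 dot per library. The mevalonate dots of GC-PB, 5.32 to 8.26, lie under all others, and the DZ dots lie under those of the light zone in the first 3 panels.

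Fraction 3 against DZ asks how Bcl6hi CD69lo light zone cells differ from dark zone cells. Idi1, Cyp51 and Fdps rose, and 24 of the 26 members had a change above 0 without most of them passing. Idi1 (chromosome 13, 8885501 to 8892451), which isomerises the basic isoprenoid unit, was 2.72, 2.76 and 1.88 in the DZ libraries and 5.93, 5.08 and 6.52 in Fraction 3. All Fraction 3 libraries lay above all DZ libraries. The change was 0.99 ± 0.18 (SE, n = 3 against 3), with a limma adjusted p of 0.00718. Cyp51 (chromosome 5, 4081145 to 4104746), the lanosterol demethylase that starts the last arm, was 1.76, 0.966 and 2.03 in DZ and 3.62, 5.26 and 4.23 in Fraction 3. The groups did not overlap here either (1.07 ± 0.21, limma adjusted p = 0.0112). Fdps (chromosome 3, 89093588 to 89101959), which makes farnesyl diphosphate, was 2.88, 3.31 and 2.89 in DZ and 5.35, 5.08 and 5.81 in Fraction 3, again without overlap (0.67 ± 0.16, limma adjusted p = 0.0434). These 3 of 26 stand beside 0.572% of all tested genes called higher. No member was called lower, against 0.483% of all tested genes.

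The other members of this comparison leaned upward. Libraries did not overlap for 12 of the 26, all with Fraction 3 higher, against 7.87% of all tested genes in that direction, and for 0 in the other direction (6.43%). The members' median change was 0.45, and that of all tested genes 0.00. Among the enzymes, Hmgcs1, which condenses acetyl units at the entry of the pathway, was 2.72, 3.17 and 4.05 in DZ and 4.63, 5.43 and 5.46 in Fraction 3 (0.53, limma adjusted p = 0.367). Msmo1, which removes methyl groups from the sterol ring, had a change of 0.87 (adjusted p = 0.137), and Sc5d, a sterol desaturase, 0.79 (0.15). In the control group Insig1, which retains SCAP and is itself an SREBP target, was 0.801, 0.828 and 1.01 in DZ and 2.17, 2.1 and 1.94 in Fraction 3. The libraries were well separated and close within each group, yet the change of 0.71 missed the threshold (adjusted p = 0.128). Srebf2 went from 0.289 to 0.801 in DZ to 1.4 to 1.94 in Fraction 3 (0.71, adjusted p = 0.147). Hsd17b7 (-0.10) and Stard4 (-0.09), a cytosolic sterol carrier, were the 2 members with a change below 0. Pmvk (-0.02 as deposited), Mvk and Dhcr7 had changes between 0.03 and 0.04, and the 13 members not yet named changes between 0.06 (Abca1) and 0.57 (Fdft1).

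These calls depended on the scale and on single libraries. As deposited, without scaling the totals, none of the 3 passed (adjusted p = 0.0993 for Idi1, 0.102 for Cyp51 and 0.463 for Fdps). The call of Idi1 ended without DZ replicate 3 (0.87) or Fraction 3 replicate 3 (0.92), that of Cyp51 without DZ replicate 2 (0.88) or Fraction 3 replicate 2 (0.95) or 3 (1.08), and that of Fdps without any 1 of the 6 libraries (0.63 to 0.72). The number of members called then ran from 0 (without Fraction 3 replicate 3) to 2. Against the equal-weight mean of Fractions 2 and 3, a comparison added after the values were seen that uses more libraries, Idi1 (1.00 ± 0.16, limma adjusted p = 0.00059) and Cyp51 (0.89 ± 0.18, adjusted p = 0.00811) were higher than in DZ, beside 1.04% of all tested genes. Cyp51 lost that call without DZ replicate 2 (0.70). In this comparison Lss was called too without Fraction 2 replicate 2. Libraries did not overlap for 8 members, all higher, against 3.06% of all tested genes, and for 0 lower (3.24%).

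Fraction 2 against DZ shares the DZ libraries with the comparison above. Idi1 was 4.82, 6.69 and 6.24 in Fraction 2, all above DZ, and was the 1 member called (1.00 ± 0.18, limma adjusted p = 0.00217), beside 1.66% of all tested genes called higher and 1.84% called lower. It kept its call without each of the 6 libraries in turn. Lss, which closes the sterol ring, was 0.32, 0.276 and 0.579 in DZ and 2.05, 0.577 and 1.86 in Fraction 2, where replicate 2 stood with the DZ libraries. Its change of 0.79 missed the threshold (adjusted p = 0.0607) and passed without Fraction 2 replicate 2 (1.09, adjusted p = 0.00648). Cyp51 had a change of 0.70 (adjusted p = 0.0704) and Msmo1 of 0.69 (adjusted p = 0.163). Libraries did not overlap for 9 members with Fraction 2 higher (10.3% of all tested genes) and for 1 with Fraction 2 lower (10.1%). That 1 was Acat2, the cytosolic thiolase that joins acetyl-CoA, at 2.48, 2.21 and 2.03 in DZ and 1.57, 1.44 and 1.42 in Fraction 2. The members' median change was 0.35, that of all tested genes 0.01.

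Fraction 2 against Fraction 3 compares CD69hi with CD69lo cells of the Bcl6hi light zone, and no member was called by limma, beside 0.438% of all tested genes called higher and 0.25% called lower. At an unadjusted p under 0.05 there were 3 members, Acat2 (-0.54, adjusted p = 0.319), Abca1 (-0.61, adjusted p = 0.378) and Fdps (-0.35, adjusted p = 0.406), all lower in Fraction 2. Libraries did not overlap for 5 members with Fraction 2 lower (8.38% of all tested genes) and for none with it higher (8.59%). Of the 26, 18 had a change below 0, and the median was -0.12 against 0.00 for all tested genes. Cyp51 was next in rank at -0.36 (adjusted p = 0.562). The direction depends on the scale: as deposited 18 members had a change above 0, the median was 0.09 (0.15 for all tested genes), and Fdps (-0.01) and Cyp51 (-0.03) were near 0.

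**Figure D3:**
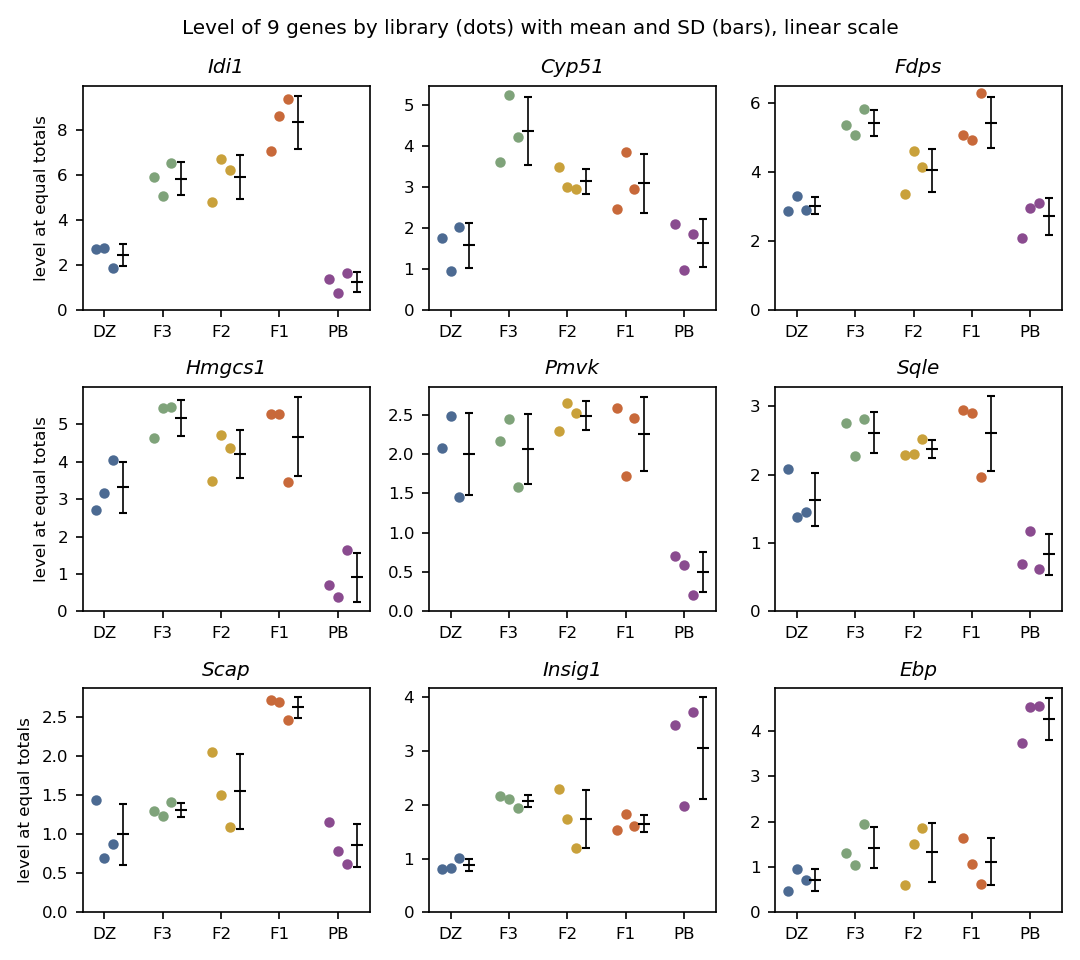
Level at equal library totals (vertical axes, linear from 0) of 9 members in the 5 groups (horizontal axes; F3, F2 and F1 are the light zone fractions, PB is GC-PB), with 1 dot per library and a bar for mean ± SD over 3 libraries. Idi1 climbs from 1.88 to 2.76 in DZ to 7.06 to 9.36 in Fraction 1 and lies at 0.788 to 1.65 in GC-PB, while Ebp is highest in GC-PB at 3.73 to 4.54.

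Fraction 1 against Fraction 2 contrasts Bcl6lo with Bcl6hi cells of the CD69hi light zone. No member was called by limma at equal totals, beside 3.79% of all tested genes called higher and 5.25% called lower. At an unadjusted p under 0.05 there were 3 members, all higher in Fraction 1. Scap, the SREBP escort, was 2.05, 1.5 and 1.09 in Fraction 2 and 2.71, 2.69 and 2.46 in Fraction 1, without overlap (0.52 ± 0.20, adjusted p = 0.124). Idi1 reached 7.06, 8.6 and 9.36 in Fraction 1, its highest level in any group (0.44, adjusted p = 0.157). Fdps was 3.37, 4.61 and 4.16 in Fraction 2 and 5.06, 4.94 and 6.28 in Fraction 1 (0.35, adjusted p = 0.206). On the other side, Srebf1, which encodes the SREBP-1 proteins that mainly serve fatty acid synthesis, was 2.41, 1.96 and 3.39 in Fraction 2 and 1.41, 1.72 and 1.23 in Fraction 1 (-0.53, adjusted p = 0.257). The exporters Abca1 and Abcg1 were also lower without overlap: Abca1 was 0.438 to 0.963 in Fraction 2 and 0.118 to 0.215 in Fraction 1 (-0.48, adjusted p = 0.322), and Abcg1 0.346 to 0.602 and 0.107 to 0.246 (-0.37, adjusted p = 0.268). At these levels Fraction 1 held about the value of 1 or 2 molecules per library. Libraries did not overlap for 3 of the 26 members higher (11.9% of all tested genes) and 3 lower (16.3%). Neither count exceeds its share over all tested genes, so these separations do not set the members apart.

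This comparison depends on the scale. As deposited, Fraction 1 libraries have larger totals than Fraction 2 libraries. Read as molecules the totals overlapped, at 326122 to 376991 and 335641 to 368603. The most frequent value of a library was 0.305 to 0.33 in Fraction 1 and 0.111 to 0.12 in Fraction 2. It was 0.356 to 0.362 in GC-PB and 0.105 to 0.139 in DZ and Fraction 3, the same split of groups as for Xist. As deposited, 18 members were called higher and 0 lower, beside 54.7% of all tested genes called higher and 0.563% lower on that scale. The members' median change was 0.80. For the 11190 tested genes as a whole the median change was 0.64 on that scale, against -0.04 at equal totals, where the members' median was -0.07. Relative to that shift Idi1 (1.79), Scap (1.70) and Fdps (1.66) were high as deposited, and Abca1 (-0.18) and Abcg1 (-0.08) were the only members below 0. Of the 26 members 15 changed sign between the scales, among them Srebf1, at 0.49 as deposited.

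**Figure D4:**
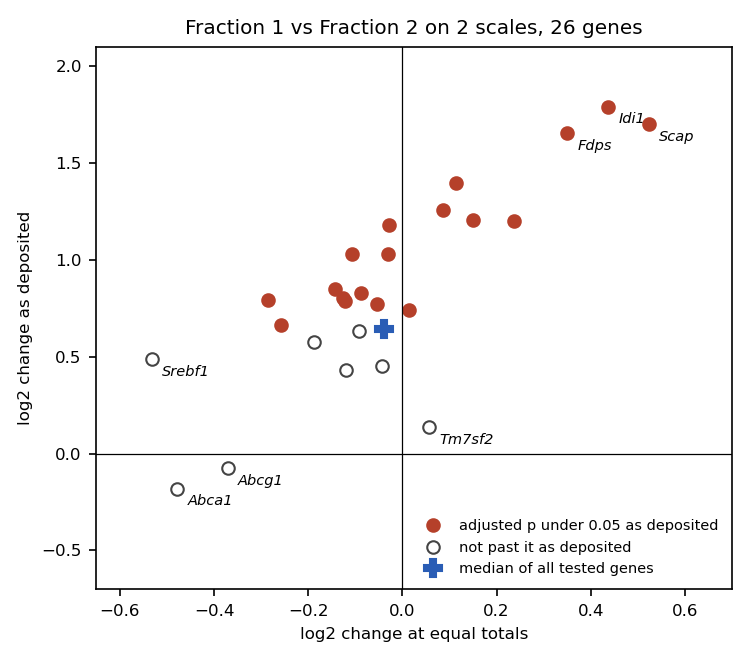
Change of the 26 members from Fraction 2 to Fraction 1 at equal library totals (horizontal axis) and as deposited (vertical axis), both as log2 differences, with filled dots for an adjusted p under 0.05 as deposited and a cross for the median of all tested genes. The cross stands at -0.04 and 0.64, and most dots lie near it or above it, with Idi1, Scap and Fdps highest and Abca1 and Abcg1 lowest.

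GC-PB against Fraction 1 held most of the calls. In plasmablasts 10 members fell and 3 rose, and the mevalonate arm fell most: 5 of its 7 members passed and none rose. Over all tested genes 22.3% were called lower and 14.1% higher here, so that the members' 10 of 26 lower stand against a high background. Idi1 was 1.4, 0.788 and 1.65 in GC-PB, far under the 7.06 to 9.36 of Fraction 1 (-2.05 ± 0.18, n = 3 against 3, limma adjusted p = 1.06e-08). Hmgcs1 (chromosome 13, 119690379 to 119708260) was 5.29, 5.27 and 3.45 in Fraction 1 and 0.699, 0.394 and 1.65 in GC-PB (-1.60 ± 0.21, limma adjusted p = 3.51e-06). For both genes every GC-PB library lay under every Fraction 1 library. Pmvk, the phosphomevalonate kinase, was 2.59, 1.72 and 2.46 in Fraction 1 and 0.699, 0.591 and 0.207 in GC-PB (-1.12 ± 0.20, limma adjusted p = 0.000136). Fdps was 2.1, 2.96 and 3.1 in GC-PB, below each Fraction 1 library (-0.80 ± 0.16, limma adjusted p = 0.000412). Acat2 was 0.824, 1.45 and 0.985 in Fraction 1 and 0, 0.591 and 0.62 in GC-PB, a small separation of low values (-0.60, limma adjusted p = 0.0339). Mvk (-0.24) and Mvd (-0.39), the other kinase and the decarboxylase of the arm, were at 0 in 2 GC-PB libraries each and did not pass. Mvk was 0.466 in GC-PB replicate 1, and Mvd was 1.03 in GC-PB replicate 3, its highest level in any library.

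In the later arms the members parted. Sqle, the squalene epoxidase, was 2.94, 2.9 and 1.97 in Fraction 1 and 0.699, 1.18 and 0.62 in GC-PB, without overlap (-0.98 ± 0.19, limma adjusted p = 0.000279). Fdft1 (-0.30) and Lss (-0.19), before and after it in the pathway, did not pass. Of the 8 members from lanosterol to cholesterol, 3 fell: Msmo1 (-0.87, adjusted p = 0.0096), Cyp51 (-0.64, adjusted p = 0.0201) and Hsd17b7, a sterol ketoreductase at 0 in 2 of the GC-PB libraries (-0.60, adjusted p = 0.0326). Ebp (chromosome X, 8185329 to 8193512), the sterol isomerase that moves the double bond of the ring, rose. It was 1.65, 1.07 and 0.616 in Fraction 1 and 3.73, 4.53 and 4.54 in GC-PB, and no library of any other group exceeded 1.94 (1.34 ± 0.24, limma adjusted p = 0.000111). Nsdhl, also X-linked, was 1.06, 0.645 and 0.739 in Fraction 1 and 1.86, 1.18 and 1.65 in GC-PB, without overlap and without passing (0.50, adjusted p = 0.109). Tm7sf2, a sterol reductase above 0 in 5 libraries in all, Sc5d (-0.35) and Dhcr7 (-0.45), which makes the last reduction to cholesterol, did not pass.

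The control genes split too. Scap fell from 2.71, 2.69 and 2.46 to 1.16, 0.788 and 0.62, with Fraction 1 the highest of all groups (-0.97 ± 0.20, limma adjusted p = 0.000616). Insig1 (chromosome 5, 28071363 to 28078662) rose from 1.53, 1.83 and 1.6 to 3.49, 1.97 and 3.72 (0.59, limma adjusted p = 0.0274), and all GC-PB libraries lay above Fraction 1, replicate 2 only just. As deposited the change of Insig1 was 0.12 (adjusted p = 0.646). Srebf2 was 1.41, 1.07 and 0.739 in Fraction 1 and 0.699, 0.394 and 0.207 in GC-PB, just short of the threshold (-0.54, adjusted p = 0.0515). Srebf1 (0.06) and Insig2 (0.10) did not pass, and both were below 0 as deposited (-0.46 and -0.29). In transport Abca1 rose from 0.118, 0.215 and 0.123 to 1.16, 0.788 and 1.65 (0.92 ± 0.26, limma adjusted p = 0.00858), back to the range of DZ (0.641 to 2.21), while Abcg1 (0.20) and Stard4 (-0.01) did not pass.

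**Figure D5:**
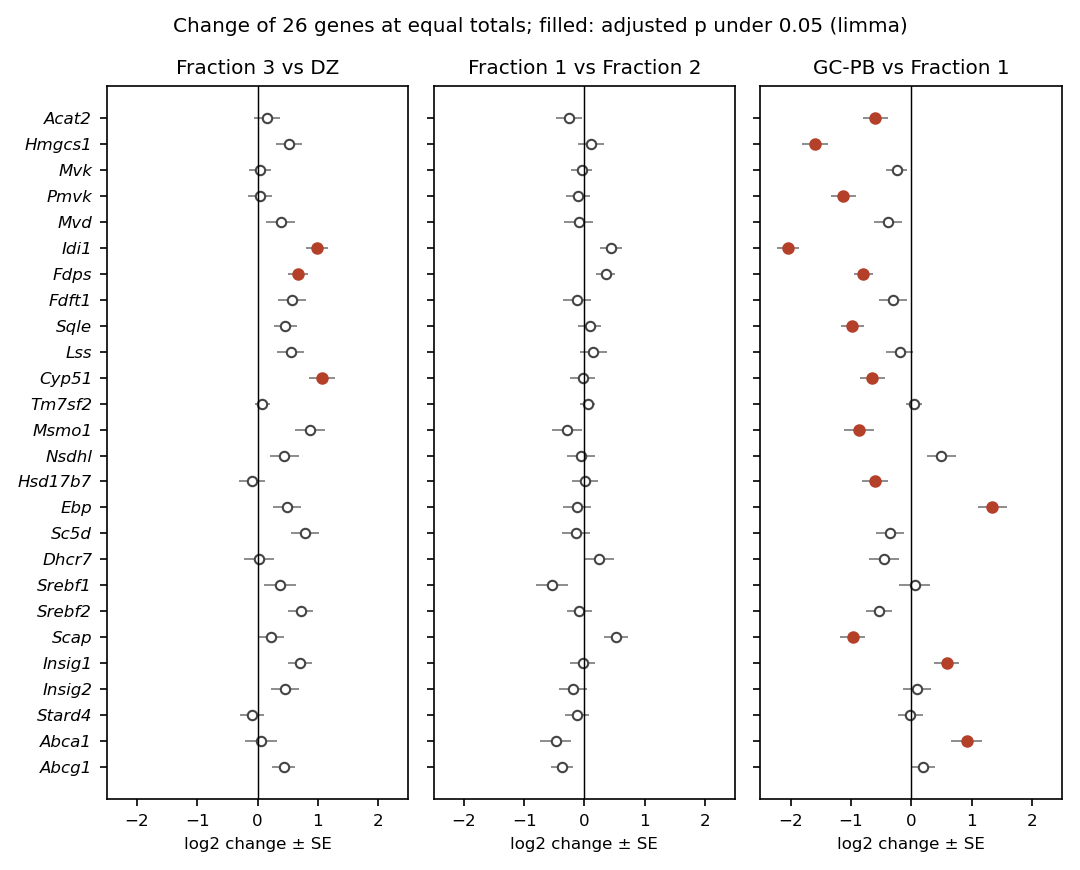
Log2 change ± SE of each member (rows) in 3 comparisons (panels) at equal library totals, with filled dots where the limma adjusted p was under 0.05. In GC-PB vs Fraction 1 the 10 filled dots on the left run from Acat2 and Hsd17b7 at -0.60 to Idi1 at -2.05, and the 3 on the right are Insig1, Abca1 and Ebp.

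Libraries of GC-PB and Fraction 1 did not overlap for 11 members lower (26.7% of all tested genes) and 4 higher (16.1%), and the members' median change was -0.37 against -0.06 for all tested genes. By arm, 5 of 7 mevalonate members, 1 of 3 to lanosterol, 3 of 8 to cholesterol and 1 of 5 control genes fell, and 1 of 8, 1 of 5 and 1 of 3 transport genes rose. With the deposited values 17 were lower and 2 higher, beside 45.8% and 11.2% of all tested genes, and with median ratios 8 and 4. Idi1, Hmgcs1, Ebp, Pmvk, Sqle, Fdps, Scap and Abca1 passed without each of the 6 libraries in turn. Msmo1 was not called without replicate 2 of Fraction 1 (-0.64) or GC-PB replicate 2 (-0.66), and Cyp51 without the same libraries (-0.51 and -0.45). Insig1 was no longer called without Fraction 1 replicate 1 (0.55) or 3 (0.57), or GC-PB replicate 1 (0.50) or 3 (0.46). Hsd17b7 was no longer called without Fraction 1 replicate 1 (-0.51) or 3 (-0.60), or GC-PB replicate 1 or 2 (-0.56 each), and Acat2 without Fraction 1 replicate 2 (-0.47) or 3 (-0.63), or GC-PB replicate 1 (-0.37).

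GC-PB against DZ was added after the values were seen, to set plasmablasts beside the other group with low enzyme sums, and it crosses the Xist divide. Of the 26 members, 4 were higher (12.6% of all tested genes) and 6 lower (23.3%), which is near those shares. The members' median change was -0.102, against -0.101 for all tested genes, so the set as a whole did not stand apart. Higher were Ebp (1.62 ± 0.24, limma adjusted p = 1.35e-05), Insig1 (1.08 ± 0.20, adjusted p = 0.000214), Lss (0.75, adjusted p = 0.0137) and Nsdhl (0.68, adjusted p = 0.0284). Lower were Acat2 (-1.24), Hmgcs1 (-1.21), Pmvk (adjusted p = 0.00048), Hsd17b7 (-0.66), Idi1 (-0.61) and Sqle (-0.53). These comparisons share the GC-PB libraries, and the 6 genes lower here were also called lower against Fraction 1, as Ebp and Insig1 were called higher. Libraries did not overlap for 4 members higher (13.7% of all tested genes) and 5 lower (27.3%). Cyp51 (0.03) and Fdps (-0.13) were not called. These directions depend on the scale: as deposited 7 members were higher and 1, Acat2, lower, beside 30.5% and 5.85% of all tested genes. On that scale Cyp51 (0.73, limma adjusted p = 0.014) and Fdps (0.72, adjusted p = 0.00467) were called higher, Idi1 (0.09) and Sqle (0.06) turned to changes above 0, and Hmgcs1, Pmvk and Hsd17b7 kept a change below 0 without passing. Ebp, Insig1, Lss and Nsdhl were called higher on both scales. At equal totals Ebp, Insig1, Acat2, Hmgcs1 and Pmvk passed without each library in turn. Idi1 was no longer called without GC-PB replicate 2 (-0.44), Lss without DZ replicate 2 (0.69) or GC-PB replicate 3 (0.65), and Sqle without DZ replicate 1 (-0.41) or GC-PB replicate 1 (-0.48) or 3 (-0.44). Nsdhl was no longer called without DZ replicate 2 (0.60) or 3 (0.68), or GC-PB replicate 1 (0.60) or 3 (0.65), and Hsd17b7 without DZ replicate 1 (-0.54) or 2 (-0.49), or GC-PB replicate 1 or 2 (-0.61 each).

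Genes around the pathway were read from lists that share no gene with the 26. Fatty acid synthesis, which SREBP-1 drives, was also lowest in GC-PB and DZ, with a summed level of 26.7 in DZ, 36.6 in Fraction 3, 35.7 in Fraction 2, 35.6 in Fraction 1 and 14.4 in GC-PB over 16 genes. In Fraction 3 against DZ, 2 of its 13 tested genes rose and 0 fell (0.572% and 0.483% of all tested genes): Scd1 (6.92 ± 0.861 to 12.3 ± 1.4, change 0.75, limma adjusted p = 0.015) and Scd2 (0.71, adjusted p = 0.0367), both stearoyl-CoA desaturases. Scd2 lost its call without any 1 of the 6 libraries (0.61 to 0.80), and Scd1 without DZ replicate 1 (0.66) or Fraction 3 replicate 2 (0.67). Fasn, the fatty acid synthase, was called in Fraction 2 against DZ (0.65, adjusted p = 0.0469), a call that ended without any 1 of the libraries (0.53 to 0.75). Its mean went on from 3.98 ± 0.553 in Fraction 2 to 7.02 ± 0.383 in Fraction 1 (0.69, adjusted p = 0.0177), while Scd1 fell from 10.2 ± 1.36 to 6.3 ± 0.472 (-0.61, adjusted p = 0.0142). As deposited Scd1 was at 0.71 there. Fasn lost that call without Fraction 2 replicate 2 (0.60) or Fraction 1 replicate 1 (0.66) or 2 (0.69), and Scd1 without Fraction 2 replicate 3 (-0.52) or Fraction 1 replicate 2 (-0.57) or 3 (-0.60). In GC-PB against Fraction 1, 7 of 13 fell and 1 rose (22.3% and 14.1% of all tested genes; 11 and 0 as deposited), with Scd1 at -1.73, Fasn at -1.42 and Acaca, the carboxylase that supplies malonyl-CoA, at -1.27, each kept without each library in turn.

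Genes that carry and store sterol, and those that process SREBP, were read in GC-PB against Fraction 1 beside 14.1% of all tested genes called higher and 22.3% lower. Of 15 tested genes of sterol uptake, storage and transport, 6 rose and 2 fell at equal totals. As deposited the counts were 4 and 4, and the list's median change went from 0.18 to -0.12. Npc2, which hands cholesterol out of lysosomes, went from 1.43 ± 0.495 to 13.6 ± 1.26 (2.61, limma adjusted p = 2.12e-09). Nceh1, a cholesteryl ester hydrolase, had a change of 1.37, and Osbp, an oxysterol-binding exchanger, 1.25. Of 15 genes of SREBP processing and sterol-regulated turnover, 7 rose and 2 fell at equal totals, against 3 and 5 as deposited. Sec24a (1.91) and Sec23a (1.34) belong to the COPII coat that carries SCAP among many other cargoes, and Syvn1 (2.05, limma adjusted p = 5.8e-10) is a ubiquitin ligase of the endoplasmic reticulum. The plasmablast list rose in this comparison too, from 26.3 ± 2.64 in Fraction 1 to 2292 ± 318 in GC-PB, and its part in these changes was not tested. Among 7 tested oxysterol and LXR genes 0 rose and 2 fell, Rxrb, a partner of LXR (-0.65), and Lpcat3, a phospholipid-remodelling LXR target (-0.54). In the isoprenoid branch, 1 of 15 rose, the prelamin protease Zmpste24 (0.98), and 2 fell, the Rab prenylation subunit Rabggtb (-0.76) and Pdss1 of ubiquinone synthesis (-0.67). As deposited 1 of these rose and 8 fell. Lpcat3 lost its call without Fraction 1 replicate 1 (-0.51), 2 (-0.52) or 3 (-0.57), or GC-PB replicate 1 (-0.46) or 3 (-0.54), and Rxrb (-0.56) and Rabggtb (-0.59) lost theirs without Fraction 1 replicate 1.

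In the other comparisons few of these genes passed. Gramd1a, a sterol transfer protein, fell in Fraction 2 against DZ (-0.86, limma adjusted p = 0.0378), a call that ended without any 1 of the 6 libraries (-0.99 to -0.76). In Fraction 1 against Fraction 2, Osbpl9 fell from 4.81 ± 0.405 to 1.43 ± 0.209 (-1.26, limma adjusted p = 3.43e-05) and Syvn1 from 8.01 ± 0.548 to 4.44 ± 0.542 (-0.73, adjusted p = 0.00327). Both kept the call without each library, but as deposited Osbpl9 was at -0.25 and Syvn1 at 0.55. Gpr183, the receptor that positions B cells along oxysterol gradients, rose from 0.318 ± 0.369 to 1.65 ± 0.915 (0.99, adjusted p = 0.0217), a call that ended without Fraction 2 replicate 2 (0.96) or 3 (0.81) or Fraction 1 replicate 3 (0.73). Nus1, a subunit of the dolichol-making enzyme, rose from 2.45 ± 0.139 to 5.2 ± 0.331 (0.85, adjusted p = 0.0141), a call that ended without Fraction 2 replicate 1 (0.81) or Fraction 1 replicate 2 (0.83) or 3 (0.82). Ncoa1, a coactivator of nuclear receptors (-0.66, adjusted p = 0.0209), and Rnf145, a ubiquitin ligase of the endoplasmic reticulum (-0.65, adjusted p = 0.0491) fell at equal totals and were at 0.38 and 0.35 as deposited. Rnf145 lost its call without any 1 library (-0.73 to -0.56), and Ncoa1 without Fraction 2 replicate 1 (-0.54) or Fraction 1 replicate 1 (-0.63) or 3 (-0.65).

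At equal totals the order of the enzyme sums was unlike that of summed mitosis genes. Enzyme and growth sums both had GC-PB lowest and DZ next, but ranked the light zone fractions differently. Summed mitosis genes (16) were 150 in DZ, 144 in Fraction 3, 141 in Fraction 2, 61.9 in Fraction 1 and 51.6 in GC-PB. The DZ libraries (115 to 168) overlapped those of Fraction 3 (141 to 145) and Fraction 2 (139 to 143), whereas their enzyme sums lay under both. Summed growth genes (10, among them Myc and Odc1) were 119, 126, 197, 383 and 77.1 in the same order, with DZ and Fraction 3 close to each other, whereas the enzyme sums of these groups were 23 to 23.9 and 40.1 to 42.8. Npm1 and Ncl made up most of the growth sum, at 47.3 and 24.5 in DZ and 46.8 and 23.9 in Fraction 3. Lower growth genes leaned upward between these groups: Myc rose from 0.581 to 3.03 (1.32, limma adjusted p = 0.00452, and 0.0439 as deposited), Cad went from 1.08 to 1.95 without overlap (0.50, adjusted p = 0.286), and 8 of the 10 had a change above 0. In GC-PB the growth sum and the mevalonate sum were both at their lowest at equal totals. The growth genes split there, however. Myc (1.45 against 0.581), Odc1 (16 against 9.58), Cad (2.85 against 1.08) and Srm (11.7 against 1.62) had higher means in GC-PB than in DZ. All the other genes of the list, Npm1 and Ncl among them, had lower means. As deposited the growth sum was lowest in DZ (93.5, against 131 in GC-PB), and the mitosis sum was highest in Fraction 1 (170, against 119 in DZ). On that scale enzyme and growth sums had the same order: DZ, Fraction 3, GC-PB, Fraction 2 and Fraction 1. In this order the enzyme means were 18.3, 31.1, 32.3, 35.5 and 106, and the growth means 93.5, 94.2, 131, 197 and 1050. The part of growth in the enzyme sums was not tested.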

How the data were processed

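Per the labels' protocols, RNA of 100 cells per library was spiked with ERCC RNA, reverse transcribed with molecular barcodes and amplified by PCR. TopHat2 (version not given in the sources used here) and mm10 are named in the submitters' processing notes. The authors deposited 1 table of signal per gene and library whose scaling is not given in the sources used here. Between 91.0% and 92.6% of values above 0 were whole multiples of the library's most frequent value (tolerance 0.02 of it), too few to recover reads, so no count test was run. Rn45s, 3.31% to 9.97% of the deposited signal, was left out and totals were set to 38594, the median.

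The tested set held 11190 genes, each with values above 0 in 3 libraries or more. Its log2(level + 1) values went into a single limma fit (version 3.58.1, R 4.3.3, trend on intensity) with a mean for each of the 5 groups, and p was adjusted by Benjamini-Hochberg over the whole set in each comparison. A gene is called at an adjusted p under 0.05. There were 5 comparisons, and 2 more were added after the values were seen. The fit was also run on simulated data with changes planted only in higher genes, which does not cover the lowest members. The alternatives were the deposited scale, median ratios, pseudocounts of 0.5 and 2, no or a stricter low-value filter (a mean of at least 1), 2 groups only, a replicate block, and leaving out each library.

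The members and lists were chosen with earlier results of these data known, and the motif spellings after matches were seen. Every member is accounted for. Named in full are called members in order of p, up to 10 per comparison, or the 4 of smallest p where fewer than 4 were called, and up to 3 called genes from each further list. Positions are from GENCODE M21 on mm10. Figures were made in matplotlib 3.10.9 (Python 3.11.15).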

Additional observations from a re-analysis of the deposited data

How the results depend on the processing

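Over the settings other than leaving out a library, 55 single-gene changes, those the naming rule picks in the 5 comparisons, kept sign and side of the threshold in 391 of 433 values, lost a call in 30, gained one in 7 and changed sign in 5. Those 5 are the deposited changes from Fraction 2 to Fraction 1 of Srebf1 (0.49), Syvn1 (0.55), Rnf145 (0.35), Ncoa1 (0.38) and Scd1 (0.71). Over all 26 members and 7 comparisons, 42 of 182 changes had another sign as deposited, 15 in Fraction 1 vs Fraction 2, 12 in GC-PB vs DZ and 10 in Fraction 2 vs Fraction 3. Of the 42, 2 were called at equal totals, Idi1 (-0.61, 0.09 as deposited) and Sqle (-0.53, 0.06) in GC-PB vs DZ. Leaving out 1 library lost a call in 74 of 330 values and gained one in 1.

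Members called in Fraction 3 vs DZ were 3, and 0 as deposited. In Fraction 2 vs DZ they were 1, and 2 as deposited, 3 with the stricter filter and 2 with these 2 groups only. In Fraction 1 vs Fraction 2 they were 0, and 18 as deposited and 1 (lower) with these 2 groups only. In GC-PB vs Fraction 1 they were 13, and 11 to 14 under settings other than the deposited scale (19). No member was called in Fraction 2 vs Fraction 3 under any setting run. Without 1 library each, the members called ran from 0 to 2 in Fraction 3 vs DZ, from 1 to 2 in Fraction 2 vs DZ and from 10 to 13 in GC-PB vs Fraction 1, and were 0 in the other comparisons.

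All genes called in Fraction 3 vs DZ were 118, and 27 as deposited. In Fraction 2 vs Fraction 3 they were 77, and 301 as deposited, 44 with median ratios, 152 with the stricter filter, 179 with these 2 groups only and 40 with the replicate block. In Fraction 1 vs Fraction 2 they were 424 higher and 587 lower, and 6120 higher and 63 lower as deposited (6183 in all) and 551 and 395 with median ratios. In GC-PB vs Fraction 1 they were 4064, 6380 as deposited. Without 1 library each they ran from 43 to 94 (Fraction 3 vs DZ), 17 to 36 (Fraction 2 vs Fraction 3), 208 to 273 (Fraction 2 vs DZ), 531 to 670 (Fraction 1 vs Fraction 2) and 3487 to 3878 (GC-PB vs Fraction 1). Except where fewer libraries or genes enter by construction, the cause of these differences was not tested.

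Replicate numbers are shared between groups, but same-numbered libraries deviated together little if at all (correlations of -0.045 to 0.053 over 5509 genes). Whether the block stands for a pairing cannot be told from such small values. With the replicate block 2 members were called in Fraction 3 vs DZ, Fdps being lost (0.67, limma adjusted p = 0.0511), and 14 in GC-PB vs Fraction 1. In Fraction 3 vs DZ, each library correlated best with its own number, at 0.016 to 0.038 against at most 0.008 with another number. Depth limits the lowest members: Tm7sf2, Mvk, Mvd, Hsd17b7, Stard4 and Abcg1 summed to between 7 and 59 molecules over 15 libraries, where only large differences could have been seen.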
